A study of Homo sapiens with 24 samples.

Results

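Total RNA of untreated MRC5 cells was set against the RNA recovered from polysome gradients of the same kind of cells, to see which transcripts were carried by the whole-cell preparation and were low or missing in every gradient pool. MRC5 is a line of human lung fibroblasts. The comparison used 12 of the 24 arrays of the series, all from control cells that received no hydrogen peroxide: 3 arrays of total RNA and 9 gradient arrays, which were 3 of an untranslated pool, 3 of a low polysome pool and 3 of a high polysome pool. Members were taken by their labels, with earlier results of these data known. The untranslated pool joined gradient fractions 1 to 9 (free ribonucleoprotein particles and monosomes), the low pool fractions 10 to 14 (2 to 4 ribosomes on an mRNA) and the high pool fractions 15 to 23 (5 or more ribosomes). Cells of every gradient were treated with cycloheximide, which holds ribosomes on their mRNA, and the lysate was cleared by a short spin before it was loaded. Total RNA was taken with TRIzol and fraction RNA with phenol and chloroform, so the extraction and the loading step cannot be told apart from the difference between total RNA and the pools. The 3 replicates of a group were described by the study as independent RNA preparations, but in the labels untranslated replicates 1 and 2 carry 1 number, so they may not be 2 preparations.

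A sucrose gradient separates RNA by the mass of the particle it travels in, and ribosomes account for most of that mass. A messenger RNA in translation runs deep into the gradient, while a free RNA stays near the top. RNA that remains in the nucleus, such as the long non-coding RNAs (lncRNAs) of nuclear bodies and chromatin, is largely pelleted with the nuclei when a cytoplasmic lysate is cleared. Small nucleolar RNAs (snoRNAs), which guide the modification or the processing of ribosomal RNA, and their relatives of Cajal bodies, the scaRNAs, are also nuclear.

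For each array 100 ng of RNA was the input to labelling, so a level is relative to the other RNAs on its own array. Labelling began with reverse transcription from an oligo-dT primer. The part of this priming in the levels of RNAs without a poly(A) tail, and in differences between probes of the same gene, was not tested. Less RNA of a kind per cell and fewer cells that hold it cannot be told apart in such samples. The array carried 17535 catalog probes, called mRNA probes below although some name non-coding genes, and 44002 custom probes to 22007 lncRNA transcripts, called lncRNA probes. The lncRNA probes came with an Ensembl transcript identifier and with no gene name or position. All levels are log2 of the processed signal after quantile normalization of the 12 arrays. Probes entered the test if all 3 arrays of any of the 4 groups detected them (signal well above background), which left 10832 mRNA probes and 12062 lncRNA probes. A probe was called above the gradient when total RNA exceeded all 3 pools, and below when it was under all 3, by limma with a Benjamini-Hochberg adjusted p under 0.05. Differences "above" are the mean of total RNA minus the highest of the 3 pool means, and differences "below" are total RNA minus the lowest pool mean, with the standard error (SE) of the fit and n = 3 arrays in each group throughout.

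On 2 of the 3 total RNA arrays some spots were dark. On total RNA replicate 1, 238 of 9945 bright probes lay more than 4 log2 units under the mean of the other 2 total RNA arrays. The smallest rectangle that holds them, rows 91 to 226 and columns 1 to 28, has 573 bright probes. On total RNA replicate 3, 31 of 9786 did, and their rectangle, rows 186 to 265 and columns 77 to 104, has 351 bright probes. These rectangles are called dark areas below, although most of their bright probes were not dark. The other 10 arrays had 0 to 5 such probes. A dark spot lowers the mean of total RNA, as for ATP8, LAMA2 and COL6A2 below. Probes of ZSCAN2, ENST00000453554.1 (CUST_488), COL6A3 (A_33_P3210488), COL5A1 (A_33_P3629678), COL4A2, THBS1, SDHA (A_33_P3311056), NKTR, MAT2A, LUM and SNORA71A also lie within these rows and columns, but their 3 total RNA values were close to each other. Of 11 fibroblast markers listed, 4 had catalog probes (COL1A1, COL3A1, LUM and THY1), and all 4 were well above background on all 12 arrays. Markers of other lung cells had 2 tested probes of 4 (epithelial), 1 of 4 (endothelial) and 2 of 4 (leukocyte), with 0 called in either direction. Of these, 1 leukocyte probe was also well above background on all 12 arrays.

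Total RNA was called above every pool for 554 of 10832 mRNA probes (5.11%) and for 922 of 12062 lncRNA probes (7.64%). It was called below every pool for 74 mRNA probes (0.683%) and for 56 lncRNA probes (0.464%). For every one of these calls the 3 total RNA arrays did not overlap the 9 gradient arrays, and the direction was the same on each of the 3 slides. Both describe the values that gave the calls, and the second follows from the first, so neither is further support. With untranslated replicates 1 and 2 averaged into 1 sample, the counts were 600 and 997 above and 91 and 74 below. The shares called above include probes detected on all 3 total RNA arrays and on 0 gradient arrays. Of these, 84.7% of 170 mRNA probes and 85.3% of 532 lncRNA probes were called above. Among probes detected on all 12 arrays, 265 of 7022 mRNA and 151 of 4939 lncRNA probes were called above. The higher share of lncRNA probes was therefore not seen among these. Most transcripts showed neither pattern, since the total RNA mean fell between the highest and the lowest pool mean for 71.7% of the mRNA probes and for 64.5% of the lncRNA probes. The median difference between total RNA and the highest pool was -0.81 for mRNA probes and -0.85 for lncRNA probes. With the other ways of scaling and filtering, the median of all mRNA probes ran from -1.17 to -0.62, and each list below is read against it. Among the 554 mRNA probes above, the highest pool was the high polysome pool for 331, the untranslated pool for 115 and the low pool for 108. Among the 922 lncRNA probes above, it was the untranslated pool for 352, the high pool for 308 and the low pool for 262.

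**Figure D1:**
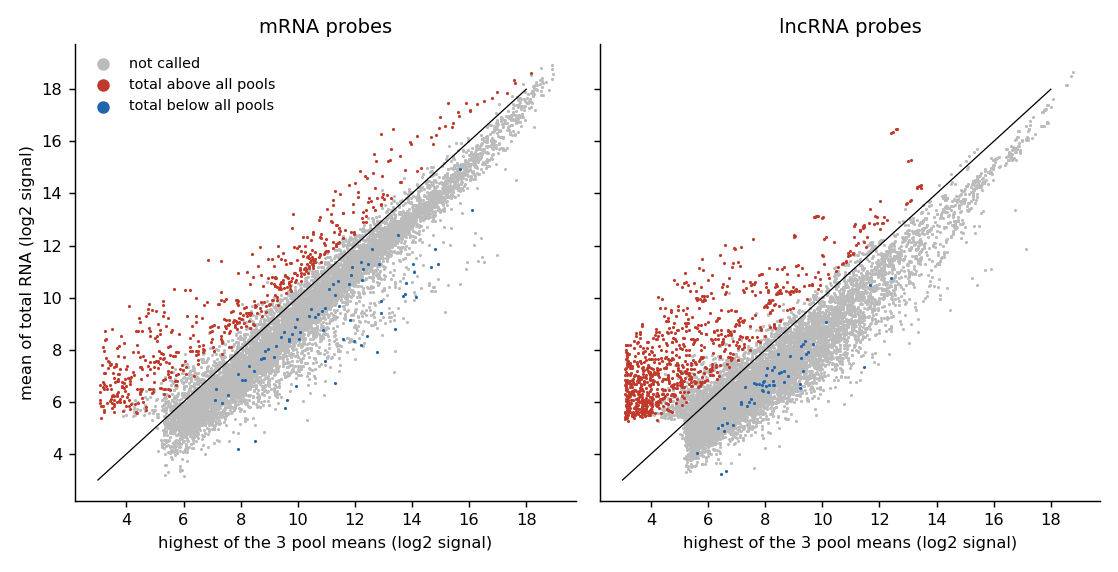
Mean log2 signal of total RNA (vertical axis, n = 3 arrays) against the highest of the 3 pool means (horizontal axis) for each tested mRNA probe (left) and lncRNA probe (right), with the line of equality. Red points are the 554 and 922 probes called above all pools, blue points the 74 and 56 called below, and grey points were not called.

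Detection on all 12 arrays held for 265 of the 554 mRNA probes and for 151 of the 922 lncRNA probes, and the rest were missed on at least 1 array. Among those detected on all 12, 159 mRNA and 90 lncRNA probes exceeded the highest pool by more than 2-fold. The 922 lncRNA probes belonged to 590 transcripts, of which 332 had both of their probes called. Transcripts of one locus share sequence, and joining probes of 1 transcript, or probes with a common run of at least 20 bases, left 490 groups with up to 16 probes each. The number of independent lncRNAs is therefore smaller than the number of probes.

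Of 14 nuclear lncRNA genes listed, 9 had catalog probes, with 11 probes. Of these, 7 probes were tested and 3 were called above the pools (MALAT1, KCNQ1OT1 and 1 of 3 MEG3 probes), with 0 below, beside 5.11% of all mRNA probes. The lists were matched to catalog probes only, so lncRNA probes of the same genes may stand among the unnamed transcripts below. The list median was 0.32, against -0.81 over all mRNA probes. Over the alternative settings 1 to 5 probes were above, and the median ran from -0.05, with each probe category normalized by itself, to 1.36. Of the 4 probes detected on all 12 arrays 1 was above, with a median of 0.08. Without total RNA replicate 1, 8 probes were tested, 4 were above and the median was 1.17. The probes of MIAT, CDKN2B-AS1, FIRRE and MIR17HG did not reach the detection needed for a test. The first 30 of the 60 bases of the 3 called probes are shown, as these are the sequences that were hybridised, with the position of the whole probe on GRCh37.
MALAT1, A_24_P873659, chr11:65272873-65272932, plus strand: aagcaagctgtttttatagcagctcttaat
KCNQ1OT1, A_33_P3294031, chr11:2661803-2661862, minus strand: cattcgatgcatgtaacaatagcacatgta
MEG3, A_33_P3255434, chr14:101327286-101327345, plus strand: tgtgatgcggttccaaagcacagggcttgg

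MALAT1 is an abundant lncRNA of nuclear speckles, the storage sites of splicing factors. Its probe read 11.39, 11.48 and 11.43 in total RNA, 6.49, 5.97 and 8.08 in the untranslated pool, 5.35, 6.28 and 7.19 in low polysomes, and 3.96, 5.41 and 6.41 in high polysomes. All 3 total RNA arrays stood far above all 9 gradient arrays, and the probe was well above background on 1 untranslated, 3 low and 2 high arrays. The difference from the highest pool was 4.59 (SE 0.70, limma adjusted p = 0.00155). The pool levels varied between replicates by more than those of total RNA, with the third replicate the highest of each pool.

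KCNQ1OT1 is a chromatin-bound antisense transcript that silences imprinted genes. It read 8.87, 8.80 and 8.47 in total RNA, against 3.73 to 5.11 in the untranslated pool, 4.31 to 5.26 in low polysomes and 3.59 to 4.10 in high polysomes. The groups did not overlap, and the probe was well above background on 1 of the 9 gradient arrays. The difference was 3.87 (SE 0.34, limma adjusted p = 2.74e-05). This is at least 5.95-fold when gradient values under the lowest signal detected on their array are raised to that signal. The probe entered the test through total RNA alone, and its p-value rests mostly on gradient readings below detection, so it adds nothing to this bound.

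MEG3 is an imprinted lncRNA found largely in the nucleus, and it is spliced into many isoforms. Its A_33_P3255434 probe read 16.32, 16.20 and 16.28 in total RNA, 12.78, 12.81 and 13.19 in the untranslated pool, 11.70, 12.03 and 12.46 in low polysomes, and 11.16, 11.29 and 11.39 in high polysomes. Levels fell from total RNA to the untranslated pool and further towards the polysomes, with no overlap between total RNA and any pool. The difference was 3.34 (SE 0.19, limma adjusted p = 8.19e-07), or 10.1-fold, on a probe detected on all 12 arrays. The other 2 catalog probes of MEG3 did not share it.

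The A_32_P40547 probe of MEG3 lies at chr14:101295974-101296033. It read 11.86, 11.45 and 11.62 in total RNA and 11.13, 11.24 and 11.61 in the untranslated pool. These overlapped, and the difference was 0.32 (SE 0.16, limma adjusted p = 0.616). The A_33_P3309501 probe, at chr14:101325072-101325131, was also not called (-0.93, SE 0.35). Probes of 1 gene therefore gave different answers.

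The lncRNA probes allowed a closer look at the same region. Of 10 tested lncRNA probes that share bases with A_32_P40547, 6 share 57 or 58 bases of it and 4 share only 23 or 24. The 6 near-copies (ENST00000520714.1, ENST00000521404.1 and ENST00000451743.2) differed from the highest pool by 0.13 to 0.43, and 0 were called. The 4 that share only its last bases and then continue into other sequence (ENST00000554639.1 and ENST00000519709.1) were all called, with differences of 4.10 to 4.44 and limma adjusted p from 6.11e-08 to 8.69e-06. The sequences show where these probes part, with capitals for the bases held in common with A_32_P40547 (bases 31 to 60 of the catalog probe, then bases 1 to 30 of each lncRNA probe).
MEG3, A_32_P40547: cccctctTGCTTGTCTTACTTGTCTTATTT
ENST00000519709.1, CUST_30724: TGCTTGTCTTACTTGTCTTATTTattctcc
ENST00000519709.1, CUST_30725: TTGCTTGTCTTACTTGTCTTATTTattctc
ENST00000520714.1, CUST_30704: AAGGTTTGACAGGTCAGTCCCTTCCCACCC

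In the catalog probe the capitals mark the 23 bases held by CUST_30724, and all 30 bases shown of CUST_30704 lie in the catalog probe. CUST_30725 of ENST00000519709.1 read 11.39, 11.04 and 11.21 in total RNA, 7.08, 7.05 and 7.21 in the untranslated pool, 6.54, 6.99 and 6.90 in low polysomes and 6.71, 6.93 and 6.39 in high polysomes. It was detected on all 12 arrays, and its difference of 4.10 (SE 0.17, limma adjusted p = 7.61e-08) amounted to 17.2-fold. CUST_30704 of ENST00000520714.1 read 11.83, 11.55 and 11.70 in total RNA and 11.27, 11.63 and 11.78 in the untranslated pool, which overlapped. Sequence on one side of the shared bases was thus low in every pool, while sequence on the other side was found in the untranslated pool at the level of total RNA. Neither the files nor the tables used here give the exon or intron in which each probe lies.

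TUG1, a lncRNA with nuclear and cytoplasmic pools, was not called. It read 13.83, 13.84 and 13.79 in total RNA, 12.53 to 12.68 in the untranslated pool, 13.87 to 14.06 in low polysomes and 13.78 to 13.94 in high polysomes, a difference of -0.15 (SE 0.10). Its total RNA level lay within the range of the pools.

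**Figure D2:**
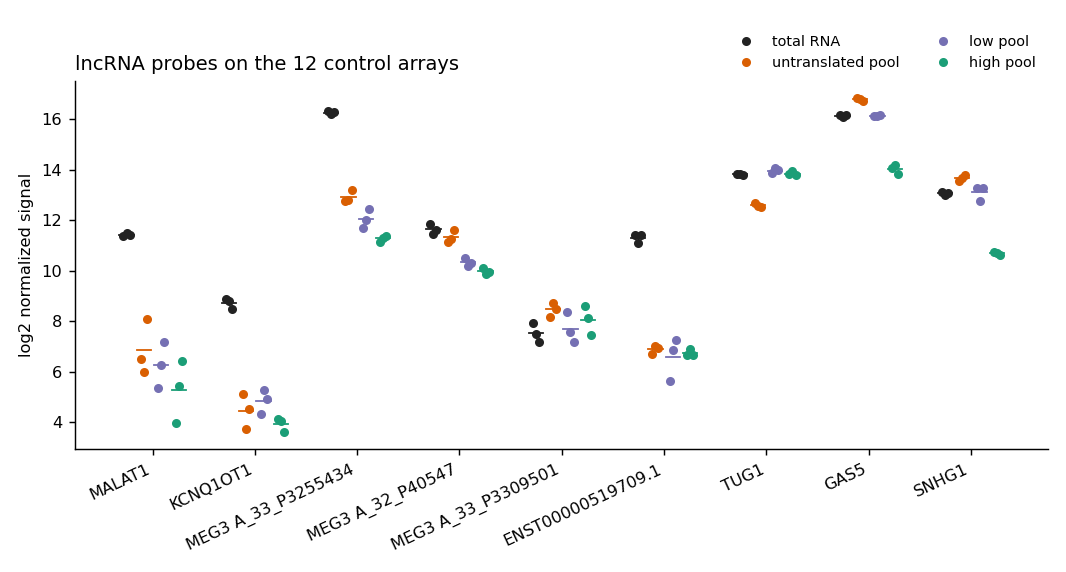
Log2 normalized signal of 9 probes of nuclear and cytoplasmic lncRNAs on the 12 control arrays, with 1 point per array, coloured by total RNA and the 3 pools, and a short line at each group mean. MALAT1, KCNQ1OT1, the A_33_P3255434 probe of MEG3 and ENST00000519709.1 (CUST_30724) have their total RNA points above every gradient point, while TUG1 and GAS5 do not.

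Cytoplasmic lncRNAs and host genes of snoRNAs formed another list. Host transcripts carry snoRNAs in their introns, are exported after splicing, and in several cases meet ribosomes. Of 10 tested probes, 1 was above all pools, beside 5.11% of all mRNA probes, and 0 below, with a median of -0.74, beside -0.81. GAS5 read 16.19, 16.08 and 16.16 in total RNA, 16.87, 16.82 and 16.74 in the untranslated pool, 16.12, 16.14 and 16.19 in low polysomes and 14.07, 14.20 and 13.84 in high polysomes. Its untranslated pool stood above total RNA on every array (-0.67). OIP5-AS1 read 8.53, 8.46 and 8.63 in total RNA and 11.35, 11.26 and 11.20 in the untranslated pool (-2.73). SNHG1 (-0.61), SNHG12 (-0.63), ZFAS1 (-1.02), CYTOR (-0.81), SNHG15 (-1.36) and NORAD (-0.68) were likewise lower in total RNA than in their highest pool. The probe above was 1 of 2 of SNHG7, A_24_P352116, with 1.59 (SE 0.41, limma adjusted p = 0.0484), a call that was lost in 16 of the other settings run, 9 of them without a single array, and also with untranslated replicates 1 and 2 averaged. The other SNHG7 probe differed by -1.08. Outside this list, lncRNA probes named through their accession were also above, 1 of SNHG7 (CUST_21811, 2.26, limma adjusted p = 0.0392) and both of SNHG3 (1.23 each, limma adjusted p = 0.00135 and 0.00129), the latter detected on all 12 arrays. CUST_21811 was detected on 1 untranslated, 0 low and 0 high arrays, so it entered the test through total RNA alone.

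snoRNA genes were grouped after their values had been seen. Among 22 tested catalog probes that RefSeq names as snoRNAs, 11 were above all pools (50.0%) and 0 below, with a median difference of 1.24. For comparison, 351 of 9030 probes of protein-coding genes (3.89%) and 30 of 336 probes of RefSeq lncRNA genes (8.93%) were above, and 0 of 6 snRNA probes. Of the 11 snoRNA calls, 6 entered the test through total RNA alone, and the protein-coding share also includes such probes. Since the group was formed from these same values, its share is a description and not support. SNORD3B-1 is a copy of U3, which guides the cleavage of pre-ribosomal RNA. It read 17.50, 17.63 and 17.52 in total RNA, 16.59, 16.60 and 16.39 in the untranslated pool, 10.90, 11.73 and 11.33 in low polysomes and 9.83, 10.67 and 10.04 in high polysomes. It was far lower in both polysome pools, and its total RNA exceeded the untranslated pool by 1.02 (SE 0.24, limma adjusted p = 0.0258).

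SNORD116-19 belongs to an imprinted cluster of snoRNAs and lies at chr15:25328768-25328827. It read 11.26, 11.19 and 11.16 in total RNA, 8.57, 8.45 and 8.75 in the untranslated pool, 5.83, 6.38 and 6.36 in low polysomes and 5.67, 6.28 and 6.06 in high polysomes. Each pool was below total RNA without overlap, by 2.62 for the highest (SE 0.19, limma adjusted p = 5.69e-06). SNORA73B, listed on the array as RNU105A, was above the untranslated pool by 2.17 (limma adjusted p = 1.1e-05). SNORA28 differed by 2.47 and SNORA62 by 1.95. The other 6 called snoRNAs were not well above background on any array of the untranslated pool and on at most 1 array of each polysome pool, so they entered the test through total RNA alone. They were higher in total RNA by at least 5.43-fold (SNORA81), 3.88-fold (SNORA74A), 2.62-fold (SNORA12), 2.23-fold (SNORA33), 1.39-fold (SNORA53) and 1.05-fold (SNORD8).

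The other 11 snoRNA probes were not called. SNORA22 was undetected in the pools, and SNORA71A differed by -2.54, with 9.54, 9.22 and 9.27 in total RNA against 11.66, 12.08 and 11.91 in the untranslated pool. SNORA71A lies in a dark area of a total RNA array, although its 3 total RNA values are close to each other. SNORD17 (-1.13), SNORA78 (-1.37), SNORD124 (-1.44) and SNORA74B (-1.46) were also lower in total RNA than in their highest pool. A snoRNA probe can bind the unspliced host transcript as well as the mature snoRNA, and these cannot be told apart by it.

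Some probes were well above background on all 3 total RNA arrays and on 0 of the 9 gradient arrays. There were 170 such mRNA probes and 532 such lncRNA probes. They entered the test through total RNA alone, so their limma p-values rest on gradient readings below detection and add nothing to the bounds given here. The reverse, detection on all 3 arrays of at least 1 pool and on 0 of the 3 total RNA arrays, was found for 219 mRNA and 785 lncRNA probes. Only 2 and 5 of these were called below all pools, because most were detected in 1 pool, the low pool for 168 and 716. Detection on all 9 gradient arrays and no total RNA array occurred for 3 mRNA probes and 0 lncRNA probes.

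SCARNA13, a guide RNA of Cajal bodies that directs the modification of spliceosomal RNA, had the largest bound among the total-only catalog probes. It read 9.87, 9.69 and 9.74 in total RNA, 5.54, 4.63 and 4.22 in the untranslated pool and 3.10 to 3.23 in both polysome pools, at chr14:95999692-95999751. It was at least 12.4-fold higher in total RNA (limma adjusted p = 5.12e-07). The bound sets the total RNA mean against the lowest detected signal of each gradient array, or against the measured value where that was higher. CIRBP, a cold-inducible RNA-binding protein, was at least 8.35-fold higher (limma adjusted p = 0.000238), the aquaporin pseudogene AQP7P1 at least 7.65-fold, RUFY2 at least 5.93-fold and CCDC18-AS1 at least 4.78-fold.

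SF1, the branch-point-binding protein of the spliceosome, had 2 probes that went apart. The A_24_P235783 probe, at chr11:64543829-64543888, read 8.37, 8.44 and 8.41 in total RNA and 3.15 to 3.44 on the 9 gradient arrays, at least 4.82-fold higher in total RNA (limma adjusted p = 6.33e-10). The A_24_P266728 probe, at chr11:64532279-64532338, read 13.08 on each total RNA array and 14.36, 14.33 and 14.25 in high polysomes, a difference of -1.24. One stretch of SF1 sequence was therefore undetected in the gradients, while another was most abundant on heavy polysomes.

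Among lncRNA transcripts, the highest bound for the total-only probes belonged to ENST00000501122.2. Its CUST_24791 probe read 11.01, 10.46 and 10.55 in total RNA and 3.93 to 5.63 on the gradient arrays. It was at least 23.2-fold higher in total RNA (limma adjusted p = 9.16e-07), and the overlapping probe CUST_24790 at least 21.7-fold (limma adjusted p = 1.27e-05). ENST00000545709.1 was at least 14.8-fold higher by 1 probe and at least 4.41-fold by the other. Of the lncRNA probes detected on all 12 arrays, those of ENST00000544868.1 and ENST00000508832.1 followed ENST00000519709.1 in size. CUST_24796 of ENST00000544868.1 read 16.30, 16.33 and 16.30 in total RNA, 12.03, 11.94 and 13.26 in the untranslated pool, 11.26, 11.58 and 12.10 in low polysomes and 10.55, 10.69 and 10.91 in high polysomes. The fall from total RNA to the untranslated pool was 3.90 (SE 0.33, limma adjusted p = 1.87e-05), or 14.9-fold, and both probes of ENST00000508832.1 gave 3.89. These transcripts are shown by sequence because no gene name came with them, with capitals for bases found in another of the probes described.
ENST00000501122.2, CUST_24791, bases 2 to 31: GCACTCAGGTTTTGCTTTTCACCTTCCCAT
ENST00000544868.1, CUST_24796, bases 1 to 30: GGAATAGCATGATGTGCTGTTAGAATCAGA
ENST00000508832.1, CUST_24798, bases 1 to 30: GGAATAGCATGATGTGCTGTTAGAATCAGA
ENST00000508832.1, CUST_24799, bases 1 to 30: gtgccttgatgccaactaaggaaatttgtt
ENST00000545709.1, CUST_27069, bases 1 to 30: agccgtgacatgtcttctgttactataaat

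CUST_24796 and CUST_24798 hold the same bases, so the agreement between the 2 transcripts is in part 1 measurement made on 2 spots. For 429 of the 22007 lncRNA transcripts a catalog probe listed the same accession, and 345 of their probes were tested, with 38 above all pools and 2 below, beside 7.64% and 0.464% of all lncRNA probes. SCARNA16, undetected in the pools, was at least 2.22-fold higher in total RNA. For SDHA, 6 lncRNA probes that hold 28 bases of the catalog probe A_33_P3311056 differed by 0.75 to 0.93, against 0.97 for the catalog probe, whereas the MEG3 probes above show that shared bases need not give close values.

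Protein-coding transcripts above all pools included mRNAs of the extracellular matrix, whose proteins fibroblasts secrete in quantity. Of 17 tested probes, 14 were above all pools, beside 5.11% of all mRNA probes, and 0 below, in 11 genes, with a median difference of 1.37, beside -0.81. Outside the dark areas 10 of 11 probes were above, with a median of 1.24, and the slide medians were 1.58, 1.20 and 1.82. Over the alternative settings 10 to 15 probes were above, and the median ran from 1.13 to 2.22. TNC, a matrix glycoprotein of tissue repair, read 11.81, 11.68 and 11.52 in total RNA, 8.07, 7.94 and 7.53 in the untranslated pool, 7.85, 8.19 and 7.69 in low polysomes and 8.51, 8.55 and 8.12 in high polysomes. Its difference of 3.28 (SE 0.19, limma adjusted p = 1.04e-06) was 9.69-fold, at chr9:117783310-117783369.

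COL12A1, a collagen that binds to fibril surfaces, read 16.45, 16.47 and 16.48 in total RNA, 12.31, 12.24 and 11.54 in the untranslated pool, 12.75, 12.63 and 12.33 in low polysomes and 13.87, 13.41 and 12.77 in high polysomes. The total RNA values were nearly identical, the high pool was the nearest pool, and the difference was 3.12 (SE 0.28, limma adjusted p = 2.99e-05). The fibrillin FBN2 differed by 3.26, COL6A3 by 2.85 and 1.08 on its 2 probes, COL5A1 by 2.42 and 2.25, COL4A2 by 2.22, the thrombospondins THBS1 by 2.10 and THBS2 by 1.37 and 1.24, COL6A1 by 1.13 and COL3A1 by 1.10. COL1A1, the main fibrillar collagen, was very bright and differed least of those called. It read 17.87, 17.90 and 17.83 in total RNA and 17.48, 17.39 and 17.10 in high polysomes (0.54, limma adjusted p = 0.019). The calls of COL1A1, COL3A1 and the second COL6A3 probe were lost without single arrays (limma adjusted p from 0.0512 to 0.0857). POSTN was not called (0.89, limma adjusted p = 0.155), and the 2 lowest probes, LAMA2 (-0.32) and COL6A2 (-2.12), lie in the dark area of total RNA replicate 1.

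Among very long mRNAs, 12 of 25 tested probes were above all pools, beside 5.11%, and 0 below, in 12 genes, with a median of 1.01 beside -0.81, and 12 of 23 were above outside the dark areas. Over the alternative settings 8 to 16 were above. DYNC1H1, the motor subunit of cytoplasmic dynein, read 15.29, 15.20 and 15.24 in total RNA, 11.97 to 12 in the untranslated pool, 11.95, 12.17 and 11.90 in low polysomes and 13, 12.77 and 12.44 in high polysomes. Its high pool was again the nearest, and total RNA exceeded it by 2.51 (SE 0.14, limma adjusted p = 8.08e-07). The cadherin FAT1 also differed by 2.51, the spectrin SPTAN1 by 2.05, UBR4 by 1.71, the dystrophin relative UTRN by 1.60, the cytolinker DST by 1.49, HERC2 by 1.45, the actin crosslinker FLNA by 1.19, MYCBP2 by 1.01 and HUWE1 by 0.92. SYNE2 was called on a dim probe (at least 1.55-fold). SYNE1 was called on 1 probe (1.19, lost without total RNA replicate 1 or 3 or high replicate 3) and not on 3 others (0.21, -0.08 and -0.55). With spike-in scaling UBR4 differed by 0.29 and was not called.

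**Figure D3:**
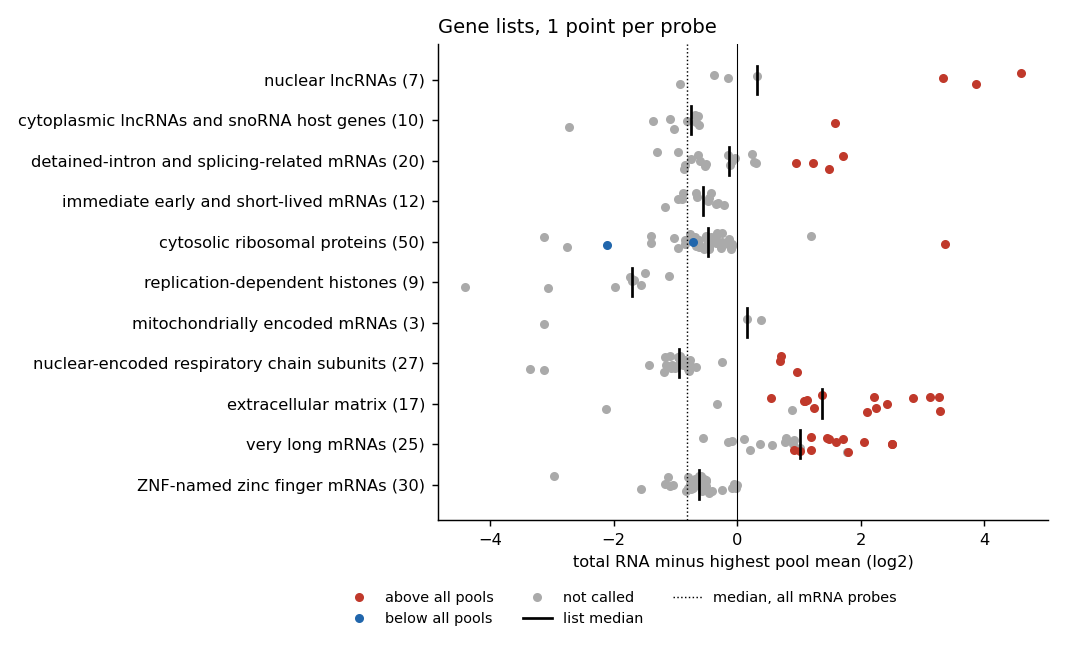
Total RNA minus the highest pool mean (log2, horizontal axis) for each tested probe of the gene lists, with the number of tested probes in brackets, a bar at the list median and a dotted line at the median of all mRNA probes, -0.81. Extracellular matrix (14 of 17) and very long mRNAs (12 of 25) hold most of the red points, which are probes called above all pools. Zinc finger (0 of 30) and histone mRNAs (0 of 9) hold none, beside 5.11% of all mRNA probes.

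mRNAs known to keep introns in the nucleus, and others that act in splicing, gave 4 probes above of 20 tested, beside 5.11%, 0 below and a median of -0.14, beside -0.81. Over the alternative settings 2 to 5 were above. CCNL2, a cyclin of splicing speckles, read 11.43, 11.20 and 11.30 in total RNA on the A_24_P51588 probe, 9.23 to 9.43 in the untranslated pool, 9.23 to 9.33 in low polysomes and 9.56 to 9.61 in high polysomes. Total RNA stood 1.72 above the high pool (SE 0.10, limma adjusted p = 1.13e-06). Its A_23_P217899 probe was also called (1.23) and its A_24_P376339 probe was not (-0.84). OGT, the enzyme that adds GlcNAc to nuclear and cytoplasmic proteins and whose mRNA has a well-known detained intron, read 11.46, 11.41 and 11.51 in total RNA and 10.06, 10.03 and 9.81 in high polysomes. The untranslated pool was lowest, at 7.42 to 7.91, and the difference was 1.49 (SE 0.14, limma adjusted p = 5.69e-05). NKTR was called at 0.95 (limma adjusted p = 0.00152), but with spike-in scaling it differed by -0.14. SON (0.31, 0.28 and -0.03), CLK1 (-0.52), MAT2A (-0.86) and CCNL1 (-1.29) were not called.

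Several catalog genes named for the size of their difference belonged to no list. DDX17, an RNA helicase of splicing and transcription, read 12.07, 11.85 and 12.01 in total RNA, 7.34, 6.35 and 6.70 in the untranslated pool, 7.24, 7.91 and 7.94 in low polysomes and 9.22, 9.42 and 9.26 in high polysomes (2.68, limma adjusted p = 4.61e-05). ABCA9, a membrane transporter, read 14.94, 14.88 and 14.77 in total RNA and 12.23, 11.95 and 12.37 in the untranslated pool (2.68, limma adjusted p = 2.84e-07). LAMB2, a laminin chain of basement membranes, read 13.98, 14.11 and 14.22 in total RNA and 11.56, 11.45 and 10.95 in high polysomes (2.79, limma adjusted p = 1.13e-06). In all 3 the groups were well separated, with the nearest pool the high pool for DDX17 and LAMB2 and the untranslated pool for ABCA9. The mitochondrial carrier SLC25A16 (2.76) and the pseudogene PGM5P2 (2.82) completed the 10 largest differences among called catalog probes with a gene symbol that were detected on all 12 arrays.

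The other lists are also read beside the shares of all mRNA probes, 5.11% above and 0.683% below, and their median of -0.81. A count of 0 in lists of this size is not read as a result. The cytosolic ribosomal proteins had 1 probe above (2.0%) and 2 below of 50 tested, with a median of -0.47. The probe above was a dim one of RPS27 that was undetected in the pools (at least 2.34-fold), and the other RPS27 probe differed by -0.34. The nuclear-encoded respiratory chain had 3 above of 27 (11.1%), with a median of -0.94. All of them were probes of SDHA, a subunit of succinate dehydrogenase (0.97, 0.71 and 0.69). The 3 SDHA probes were not called with 75th percentile or with spike-in scaling, and SDHA sequence also occurs in pseudogene copies. Immediate early mRNAs had 0 of 12 called, with a median of -0.56, EGR1 at -0.43 and IER2 at -0.65. Zinc finger mRNAs had 0 of 30, with a median of -0.62.

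Histone mRNAs, which have no poly(A) tail and are short, had 0 of 9 called above, beside 5.11% of all mRNA probes, with a median of -1.70, beside -0.81. Mitochondrially encoded mRNAs had 0 of 3 called, with a median of 0.16, but 2 of 3 were above with no normalization (median 0.85) and with spike-in scaling (1.30), and the median was -0.82 with 75th percentile scaling. ND4L read 17.33, 17.54 and 17.44 in total RNA, 16.89, 17.15 and 17.14 in the untranslated pool, 13.82, 14.48 and 13.80 in low polysomes and 13.74, 14.22 and 13.76 in high polysomes. It was low in both polysome pools and close to total RNA in the untranslated pool (0.38). The ATP8 probe lies in the dark area of total RNA replicate 1, with 3.62 there against 15.03 and 15.13 on the other 2 total RNA arrays.

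Transcripts below every pool were few. The 74 mRNA and 56 lncRNA probes had their highest pool in the untranslated pool for 44 and 35, the low pool for 22 and 9 and the high pool for 8 and 12, and among those detected on all 12 arrays 10 and 6 differed by more than 2-fold. These counts rest on single arrays more than those above. The 74 mRNA probes called below all 3 pools became 39 without total RNA replicate 2 and 44 without replicate 3. The 56 lncRNA probes called below all 3 pools became 31 and 28 without the same arrays, 34, 36 and 36 without low replicate 1, 2 or 3, and 35 without high replicate 2. The 56 lncRNA probes belonged to 48 transcripts.

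Of the 8 catalog genes with the largest differences below, 5 had the untranslated pool far above all other samples. POLR2J2, of the RNA polymerase II subunit J family, read 8.69, 8.65 and 9.04 in total RNA, 13.45, 13.33 and 13.47 in the untranslated pool, 10.64, 10.35 and 10.64 in low polysomes and 10.57, 10.36 and 10.70 in high polysomes. Total RNA lay under its lowest pool by 1.75 (SE 0.14, limma adjusted p = 1.65e-05). TNS2-AS1, listed on the array as LOC283335, read 6.57, 6.68 and 6.96 in total RNA and 11.54, 11.17 and 11.19 in the untranslated pool, and its difference from the lowest pool was -1.65 (limma adjusted p = 1.54e-05). ZSCAN2 (-1.25), FAM118A (-1.07) and TTC28 (-1.01) also had the untranslated pool as the highest and total RNA as the lowest group. A second FAM118A probe and a second TTC28 probe lay above their lowest pool, by 0.48 and 3.27. All 5 probes have bases in common with other catalog probes, so their signal cannot be assigned to the named gene alone.

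Another 3 catalog genes were named below all pools. AIF1L, a relative of an actin-bundling protein of macrophages, read 8.24, 8.54 and 8.26 in total RNA and 9.28 to 9.80 on the 9 gradient arrays, with the 3 pools close to each other (-1.16, limma adjusted p = 0.000609). TCEA1, a transcription elongation factor, differed by -1.12 (limma adjusted p = 0.00955), while its second probe lay 0.22 above its lowest pool. Both turned positive without normalization and with spike-in scaling. H3C15, a replication-dependent histone H3 gene listed on the array as HIST2H3A, read 13.7, 13.4 and 13 in total RNA, 15.93, 15.94 and 15.11 in the untranslated pool, 16.34, 16.16 and 15.79 in low polysomes and 14.65, 14.26 and 14.28 in high polysomes. It was lower in total RNA than in each pool, by 1.03 for the lowest pool (limma adjusted p = 0.0448), and this call was lost without any 1 of 8 arrays, which were total RNA replicates 2 and 3 and every low and high replicate.

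The lncRNA probes furthest below the pools were those of ENST00000438002.1, ENST00000453554.1 and ENST00000451828.1. CUST_483 of ENST00000438002.1 read 7.59, 8.01 and 7.90 in total RNA and 9.22 to 9.44 on the 9 gradient arrays, a difference of -1.48 (SE 0.12, limma adjusted p = 1.71e-05). The other 2 transcripts differed by -1.19 and -1.12. The 3 probes hold the same 30 bases, shown in capitals, so they are not independent, and all 3 turned positive without normalization and with spike-in scaling.
ENST00000438002.1, CUST_483, bases 1 to 30: TCTCTCTCTCTCAGTAAAAGCTCCACCAAA

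The balance of the 2 probe categories in total RNA lay between those of the low and the high pool. The median lncRNA level minus the median mRNA level was -2.29, -2.39 and -2.41 on the total RNA arrays (mean -2.36 ± 0.07, SD, n = 3), against -1.51 ± 0.05 in the untranslated pool, -2.21 ± 0.05 in low polysomes and -2.79 ± 0.02 in high polysomes. Within the 3 slides total RNA lay below the untranslated pool by 0.83 to 0.88, below the low pool by 0.09 to 0.24, and above the high pool by 0.39 to 0.48. No array of total RNA overlapped any pool, and each of the 3 exact permutation tests (two-sided) gave p = 0.1, the smallest value that 3 arrays against 3 allow, and 0.1 after adjustment. With 75th percentile, no or spike-in scaling the difference from the low pool was -0.058 (exact permutation p = 0.5). When each category was normalized by itself these differences were 0.08, -0.0013 and 0.02, since that step gives all arrays the same distribution in each category.

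The share of lncRNA probes well above background was 26.1% ± 1.1 (SD, n = 3) in total RNA, 18.1% ± 3.6 in the untranslated pool, 29.5% ± 3.9 in low polysomes and 22.6% ± 1.5 in high polysomes. For mRNA probes it was 60.5% ± 0.95, 47.1% ± 3.4, 62.7% ± 3.1 and 59.7% ± 1.2. Total RNA did not overlap the untranslated pool in either category (exact permutation p = 0.1, adjusted 0.2 over 6 comparisons), nor the high pool for lncRNA probes (p = 0.1, adjusted 0.2). The other exact p values ran from 0.3 to 0.6. The lowest detected signal was higher on the untranslated arrays (5.79 to 6.63) than on those of total RNA (5.05 to 5.19), and its part in these shares was not tested. By the less strict mark of a positive and significant signal, lncRNA shares were 59.68% to 63.23% in total RNA and up to 61.44% in the untranslated pool, which overlapped (exact permutation p = 0.3).

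**Figure D4:**
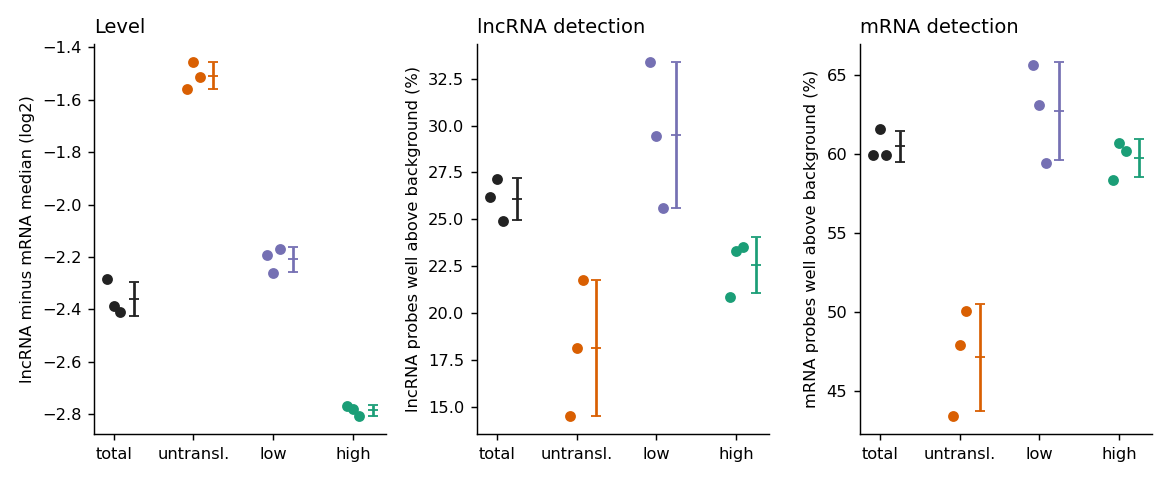
Left, median lncRNA level minus median mRNA level (log2) on each of the 12 control arrays, and centre and right, the percent of lncRNA and of mRNA probes well above background. Points are arrays and the bars beside them the mean and SD (n = 3), and the untranslated pool stands apart with -1.51, 18.1% and 47.1%.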

How the data were processed

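MRC5 RNA had been hybridised by the authors to a custom Agilent 1-colour array of 60-base probes and read with Feature Extraction 10.7.3.1. The deposited scanner files give a processed signal, an intensity after background subtraction, for each spot. The deposited value table holds log2 values, which matched log2 of that signal after quantile normalization of all 24 arrays to within 0.00145. Here log2 of the processed signal of the 12 control arrays was quantile normalized over both categories together (61403 probes, after 134 with an outlier flag were left out, with 0 saturated spots), whereas the methods treat the categories apart, which was run as an alternative. Total RNA was compared with each pool in limma 3.58.1 (R 4.3.3) over 4 groups. The p-value of a probe was that of the least favourable pool, in either direction, adjusted by Benjamini-Hochberg over 22894 tested probes, and the script was tested on simulated data. Named genes had the largest differences, above and below, among called probes detected on all 12 arrays without overlap between total RNA and gradient. Called probes detected in total RNA only were named by the largest bound. The members and the gene lists were chosen with earlier results of these data known. Values per array were compared by exact permutation tests. RefSeq gave current symbols for all but 3125 of 17535 catalog probes. The number of arrays limits the precision. Each of 3 slides held 1 array of every group. Some probe sequences are not reported here.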

Additional observations from a re-analysis of the deposited data

How the results depend on the processing

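The numbers of mRNA probes called above all 3 pools and below, and of lncRNA probes above and below (554, 74, 922 and 56), moved with these settings. The mean of the 3 pools in place of the highest gave 3151, 2475, 2585 and 3052. Detection on all 12 arrays gave 276 mRNA and 156 lncRNA probes above, since fewer probes were tested. Averaging the probes of a transcript gave 563 lncRNA transcripts above. This counts transcripts and not probes, beside 590 transcripts with a called probe in the main fit. Fewer were below with no normalization (24 and 2), spike-in scaling (18 and 1), all 24 arrays in the fit (40 and 10), the positive and significant mark (45 and 25), 75th percentile scaling (48 mRNA) and no filter (34 lncRNA). Leaving out 1 array gave from 16.4% fewer mRNA probes above (without total RNA replicate 3) to 589, 39 to 95 below, 773 to 959 lncRNA probes above and 28 to 79 below. The probes outside the dark areas, an alternative chosen after seeing the data, gave 522, 69, 893 and 56. The cause of these moves was not tested. Across groups, the deviations of same-numbered arrays correlated from -0.27 to 0.31. For the low and high pools the same-numbered pairs were all positive (0.312, 0.099 and 0.277), while pairs with unlike numbers ran from -0.283 to 0.017. Same-numbered low and high arrays also shared a slide, so a common gradient and a common slide cannot be told apart. The main fit paired no arrays, and with the replicate block the counts were 548, 73, 893 and 49. With the slide as a block they were 543, 84, 925 and 64.

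The lncRNA minus mRNA median level, total minus untranslated pool (-0.853), was 0.079 by category, -0.620 with normexp, -1.114 with 75th percentile, no and spike-in scaling, -1.447 for probes detected on all 12 arrays and -0.915 to -0.788 without 1 array. Against the low pool (-0.152) it was -0.0013, -0.058 and -0.383 for category, scaling and detection. Against the high pool (0.425) it was 0.021 by category, 0.317 with normexp, 0.835 with the 3 scalings and 0.567 by detection. With the positive and significant mark the percent of probes detected, total minus pool, was 1.02 for lncRNA against high, 7.93 for mRNA against untranslated and -0.237 for mRNA against high.

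Without normalization and with spike-in scaling these turned from negative to positive: AIF1L (1.055 and 1.505), TCEA1 (1.132 and 1.582), ENST00000438002.1 (0.634 and 1.084, other probe 1.086 and 1.536), ENST00000453554.1 (0.736 and 1.186, other probe 0.806 and 1.256), ENST00000451828.1 (0.524 and 0.975, other probe 0.352 and 0.802), RPS3 (0.719 and 1.169) and RPL23 (0.189 and 0.639). NKTR turned to -0.142 with spike-in scaling. Of 34 probes named by the rule, 8 lost their call in at least 1 setting, all of them below the pools. Signal over background limits the 170 mRNA and 532 lncRNA probes seen in total RNA only to bounds.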
